A study of Mus musculus with 2 samples.

Results

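The narrowest ac4C peaks of the mouse uterus, those of exactly 200 bp, were selected from the authors' peak list by their width, the end position minus the start position. They numbered 1687 of 21192 peaks (7.96%, 95% Wilson interval 7.604 to 8.33%) and covered 337 kb of the 9028 kb under all peaks. No peak was narrower. Per the labels, the tissue was the whole uterus, taken at gestational day 4 from wild-type mice, and the list rested on 2 libraries of polyA RNA, 1 ac4C immunoprecipitation and 1 input control. Strain, age and the number of animals were not given in the sources used here. With 1 library per group there was no replicate check, and no p-value was calculated. Width comes from the same comparison as fold enrichment, fragments and background, so these are given for the 200 bp peaks as a description. Intervals of fold enrichment cover only the counting error of the immunoprecipitated fragments, with the background held fixed. Those of shares and medians treat peaks as independent draws, and peaks that share a gene are not independent. No interval covers a spread between libraries or animals.

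N4-acetylcytidine is a cytidine that carries an acetyl group. In mammals it is placed on RNA by the acetyltransferase NAT10, long known for its work on ribosomal and transfer RNA, and it has also been described on messenger RNA. In acRIP-seq an antibody pulls down RNA fragments that hold the mark, and a peak is a stretch where the pulled-down fragments pile up over the background. The width of a peak therefore follows the run of positions that pass the threshold of the peak caller, and fragments are longer than the modified base.

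The positions are those of build mm10 (GRCm38), counted from 1, and sequence was at hand for RefSeq promoter windows of that build, which reach from 250 bases before a gene start to 50 after it. Of the 200 bp peaks, 66 overlapped such a window (3.91%, interval 3.09 to 4.95%), close to the 806 wider peaks that did (4.13%, 3.86 to 4.42%). At protein-coding starts, 13 stretches of at least 150 bases of a 200 bp peak lay in a window, and 4 of these peaks had their summit in no gene span. The CXX repeat described for ac4C, searched as CNNCNNCNNCNN, was found on the gene's strand in 8 of the 13 stretches and on either strand in 13. It was found in 57.6% of all 32851 windows on the gene's strand and in 79.3% on either strand, over the 200 bases before each start. The stretches are 154 to 200 bases long, so the lengths are close but not equal. Cytidine made up 23.9 to 39.3% of the 13 stretches (median 31.8%), against a median of 26.0% (interquartile range 21.0 to 31.5%) over all windows. Their GC content had a median of 69.5%, against 53.0% over all windows. The windows also hold starts of genes that are not protein-coding, while the 13 stretches do not. The repeat, cytidine and GC values thus come from unlike sets, and no difference between them was tested. These stretches lie in promoters and mostly before the annotated start, and the list gives no strand, so which strand the fragments came from was not tested.

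The sequences below show 5 of the 13 stretches on the strand of the gene, with bases of a CXX repeat in capitals. Zfhx2 had the highest fold enrichment of the 13, Fam189a2 and Slc29a1 have the whole peak inside the window and before the start, Rai14 has the start inside the peak, and Bmp6 holds the most bases in repeats. At most 30 bases after a start are printed.
Zfhx2, minus strand, chr14:55092145-55092298: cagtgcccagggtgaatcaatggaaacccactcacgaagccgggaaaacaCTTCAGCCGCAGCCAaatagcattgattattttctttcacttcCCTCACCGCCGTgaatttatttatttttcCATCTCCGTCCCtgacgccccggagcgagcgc
Fam189a2, minus strand, chr19:24031065-24031264: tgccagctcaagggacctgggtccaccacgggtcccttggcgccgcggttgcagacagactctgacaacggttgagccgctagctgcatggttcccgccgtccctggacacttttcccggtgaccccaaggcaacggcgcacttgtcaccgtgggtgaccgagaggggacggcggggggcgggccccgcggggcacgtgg
Slc29a1, minus strand, chr17:45595270-45595469: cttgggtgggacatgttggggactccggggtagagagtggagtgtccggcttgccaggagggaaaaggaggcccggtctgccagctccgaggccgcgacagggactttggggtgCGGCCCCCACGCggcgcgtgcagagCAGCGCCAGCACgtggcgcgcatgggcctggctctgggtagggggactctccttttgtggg
Rai14, minus strand, chr15:10714069-10714236: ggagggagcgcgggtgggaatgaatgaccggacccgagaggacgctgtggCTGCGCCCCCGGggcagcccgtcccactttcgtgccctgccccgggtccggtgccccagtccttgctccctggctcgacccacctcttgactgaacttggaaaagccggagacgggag
Bmp6, plus strand, chr13:38345466-38345632: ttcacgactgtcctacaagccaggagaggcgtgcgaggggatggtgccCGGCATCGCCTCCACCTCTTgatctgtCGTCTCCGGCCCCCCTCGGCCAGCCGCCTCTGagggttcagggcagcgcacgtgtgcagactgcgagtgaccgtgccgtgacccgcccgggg

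Zfhx2, a zinc finger homeobox transcription factor, stood here at 7.38-fold (95% Poisson interval 3.89 to 13.01) on 10 fragments over a background of 0.490. The Fam189a2 peak stood at 6.20 (3.86 to 9.51) on 19 fragments, and no CXX repeat was found on the gene's strand of its 200 bases. Rai14, which codes for an actin-binding ankyrin repeat protein, stood at 5.70 (2.72 to 11.0) on 7 fragments, and 138 bases of its stretch lay before the start. Slc29a1, the equilibrative nucleoside transporter of the plasma membrane, stood at 5.36 (2.74 to 9.69) on 9 fragments. Bmp6, a ligand of the bone morphogenetic protein family, stood lowest of the 5 at 4.17 (1.82 to 8.81) on 5 fragments. The intervals of the 5 peaks overlapped one another.

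A microRNA hairpin lay inside 3 of the 200 bp peaks, all on chromosome 7, out of 1005 hairpins of the table, of which 88 overlapped a wider peak. These 3 hairpins are shown because here the whole hairpin fits in the peak. The list holds 1687 peaks of 200 bp and 19505 wider ones, and the 88 may overlap in part, so nothing is read from these counts. The mature microRNAs follow with the seed, bases 2 to 8, in capitals.
mmu-miR-7050-5p: aCAGGAGAagggggugagaga
mmu-miR-7050-3p: uCUCAGCCuuuaucuccccag
mmu-miR-7059-5p: aCCGGGGAcugcggcuuucagu
mmu-miR-7059-3p: uGUUUGCUguuuguccucccag
mmu-miR-762: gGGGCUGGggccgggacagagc

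No seed was shared among these microRNAs. The hairpin of Mir7050 lay in the span of Fxyd5, which codes for a regulator of the sodium pump, at chr7:31040217-31040416 (5.33-fold, interval 2.73 to 9.64, 9 fragments). Mir7059 lay in Cln3, a gene of a lysosomal membrane protein, at chr7:126579403-126579602 (4.68-fold, 2.39 to 8.46, 9 fragments). Mir762 lay in Bcl7c, a subunit of SWI/SNF chromatin remodelling complexes, at chr7:127708486-127708685 (6.398-fold, 3.46 to 11.0, 11 fragments). Each of the 3 host genes held 3 peaks. The list gives no strand, and which transcript the fragments came from was not tested. The level of the mature microRNAs was not measured here.

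The width of 200 bp stood apart from its neighbours by number. It was shared by 1687 peaks, while 228 peaks were 1 bp wider and 213 were 2 bp wider, and 934 peaks in all were wider by 1 to 5 bp. In the 200 bp peaks the summit lay in the middle 0.5 of the width, here 100 bp, in 1231 cases (73.0%, interval 70.8 to 75.04%), against 76.2% (74.6 to 77.8%) in the middle 0.5 of the other peaks of up to 220 bp, where that stretch is slightly longer. The median offset of the summit from the start was 97 bp.

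**Figure D1:**
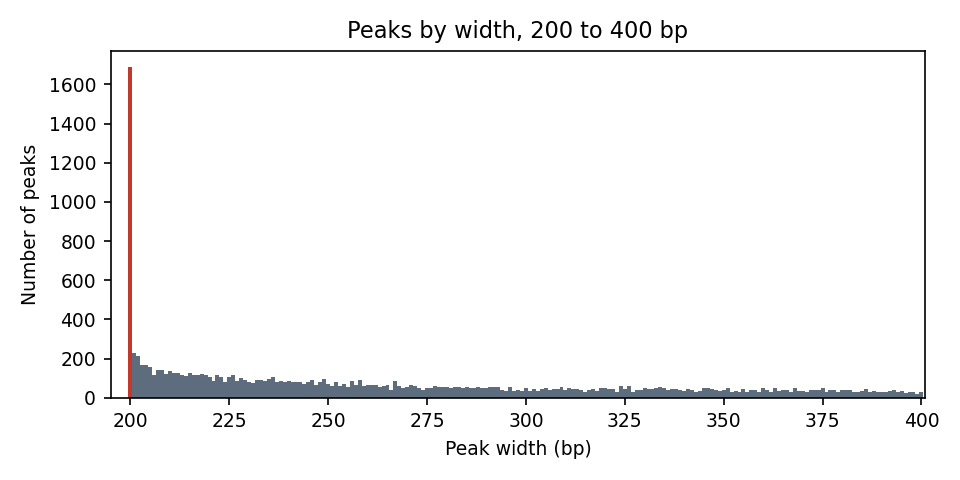
Number of peaks (vertical axis) at each width in bp (horizontal axis), for widths up to 400 bp, with the 200 bp peaks in red. The 1687 peaks of 200 bp form a single column above the 228 peaks that are 1 bp wider.

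The 200 bp peaks rested on few fragments. At the summit they held 4 to 74 fragments, with a median of 11 (interquartile range 7 to 16), while the wider peaks held 4 to 390 with a median of 23 (15 to 36). Fewer than 10 fragments were found in 696 of them (41.3%), against 8.47% of the wider peaks. The background, the number of fragments expected at the summit, had a median of 1.31 in the 200 bp peaks and 2.89 in the wider ones. The lowest background of the list, 0.317 fragments, was that of 123 of the 200 bp peaks (7.29%, 6.15 to 8.63%) and of 2.54% (2.33 to 2.77%) of the wider peaks.

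Their fold enrichment, a value of the authors' peak caller, ran from 1.67 to 9.18 with a median of 4.88 (interquartile range 4.17 to 5.58). In the wider peaks it ran from 1.61 to 58.5 with a median of 5.68 (4.36 to 7.59). The lower ends of both ranges thus lay close together and the upper ends far apart. Fold enrichment here adds 1 to fragments and to background, which lowers it most where the background is low. A fold enrichment of at least 5 was found in 795 of the 200 bp peaks (47.1%), and 61.4% of all peaks passed that level. A −log10 q of at least 10 was found in 91 (5.39%), and 45.2% of all peaks passed it. Both levels use the comparison that also set the widths, so nothing is read from these shares. Just outside the rule, peaks wider by 1 to 5 bp had a median of 5.24-fold on 17 fragments, and 20.2% of them reached a −log10 q of 10. Counting error was large at this depth. In the median 200 bp peak the 95% interval of the fold enrichment ran from 54.1% to 172% of the value, against 64.9% to 148% in the median wider peak.

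**Figure D2:**
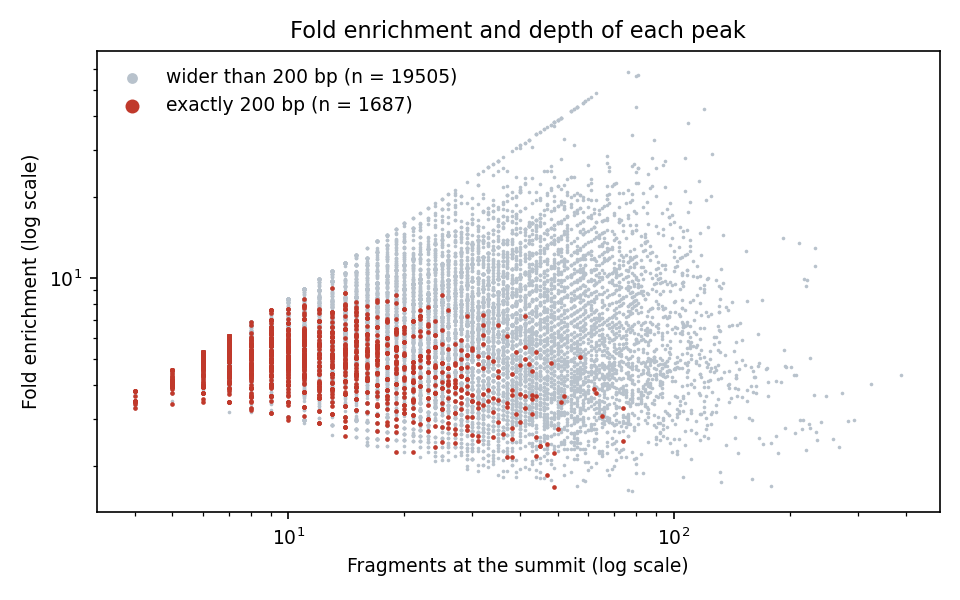
Fold enrichment (vertical axis, log scale) against fragments at the summit (horizontal axis, log scale) for each peak, with 1687 peaks of 200 bp in red and 19505 wider peaks in grey. The red points stay at or below 9.18-fold and 74 fragments, while grey points reach 58.5-fold and 390 fragments.

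The share of 200 bp peaks fell from class to class as the background rose. Below 0.5 fragments of background they made up 335 of the peaks (20.9%, interval 19.0 to 23.0%), between 1 and 2 fragments 10.2% (9.33 to 11.2%), between 4 and 8 fragments 3.55% (3.04 to 4.15%), and from 16 fragments 15 peaks (1.84%, 1.12 to 3.01%). Within each class their median fold enrichment lay below that of the wider peaks. It was 5.32 against 6.96 below 0.5 fragments, 5.07 against 6.66 between 1 and 2 fragments, 3.83 against 4.93 between 4 and 8 fragments, and 2.37 against 3.26 from 16 fragments. The smallest fold enrichment in the lowest class was 3.395 for the 200 bp peaks and 3.34 for the wider ones, and no peak of that class was listed below these values.

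**Figure D3:**
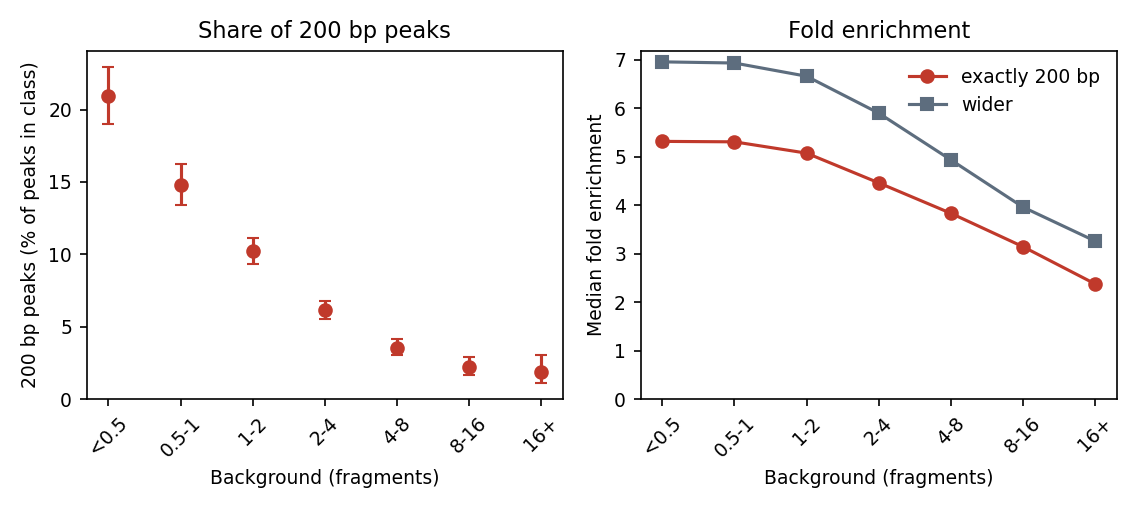
Left, 200 bp peaks as a percentage of all peaks in each class of background in fragments, with 95% Wilson intervals; right, median fold enrichment of 200 bp peaks (red circles) and wider peaks (grey squares) in the same classes. The share falls from 20.9% to 1.84%, and the red medians lie below the grey ones in every class.

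Most 200 bp peaks lay in the span of a single protein-coding gene, introns included. This held for 1530 of them (90.7%, interval 89.2 to 92.0%) and for 92.0% (91.7 to 92.4%) of the wider peaks, and 77 of the 1530 (5.03%) lay in a further gene that is not protein-coding. The 1530 peaks were spread over 1289 genes. Of these genes 1094 held 1 peak of 200 bp, 158 held 2, 32 held 3, 3 held 4, 1 held 5 and 1 held 7. In 289 genes all peaks were 200 bp wide, while 1000 genes also held a wider peak.

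For 276 of the 1530 peaks the 200 bp peak was the only peak of its gene (18.04%, interval 16.2 to 20.05%), against 2282 of the wider peaks (12.7%, 12.2 to 13.2%) and 13.6% (11.4 to 16.1%) of those wider by 1 to 5 bp. A further 1225 (80.1%, 78.0 to 82.0%) lay in a gene with at least 1 wider peak, and 29 lay in genes with several peaks, all of 200 bp. Seen from the genes, 200 bp peaks made up 10.8% (9.65 to 12.1%) of peaks that were alone in their gene, 9.34% (8.26 to 10.6%) in genes with 2 peaks, 7.62% (7.12 to 8.15%) in genes with 3 to 9 and 5.71% (5.04 to 6.47%) in genes with 10 or more. Lone 200 bp peaks had a median fold enrichment of 4.88 on 9 fragments and a background of 0.963. Those beside a wider peak had 4.87 on 11 fragments and a background of 1.42. The 2 kinds thus had nearly the same median fold enrichment on the caller's scale. That scale adds 1 to both fragments and background, so the ratio of the bare numbers differs from it.

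Genes whose only peak was 200 bp wide had a median span of 31.4 kb (95% interval of the median 26.3 to 39.7 kb), against 20.3 kb (19.0 to 22.1 kb) for genes with a single wider peak. Genes with a lone peak wider by 1 to 5 bp had a median of 42.6 kb (27.6 to 56.8 kb), and the intervals overlap with those of the 200 bp peaks. The share of 200 bp peaks among all peaks was 6.13% (5.29 to 7.09%) in genes under 10 kb and 10.3% (8.61 to 12.2%) in genes of 300 kb or more. The longest genes with a lone 200 bp peak were Nrg3, Fat3 and Rabgap1l. Nrg3 (NCBI gene 18183), a neuregulin ligand of ErbB receptors with a span of 1108 kb, stood at 6.07-fold (interval 2.90 to 11.7) on 7 fragments at chr14:38380519-38380718. Fat3 (NCBI gene 270120), a giant protocadherin gene of 592 kb, stood at 4.70 (2.71 to 7.68) on 14 fragments at chr9:15915345-15915544. Rabgap1l (NCBI gene 29809), a GTPase-activating protein of Rab proteins, stood at 4.70 (2.15 to 9.43) on 6 fragments at chr1:160740825-160741024. The summits of Nrg3 and Fat3 lay at 98.6% and 99.1% of the span, close to the 3′ end, and that of Rabgap1l at 9.15%.

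Where a gene held several peaks, the 200 bp peaks were often neither near the others nor the strongest. The gap to the nearest other peak of the gene had a median of 2001.5 bp (interval of the median 1756 to 2280 bp, 1254 peaks), against 1119.5 bp (1079 to 1154 bp) for the wider peaks. It was under 500 bp in 280 peaks (22.3%, 20.1 to 24.7%), against 32.4% (31.6 to 33.1%) of the wider peaks. It was over 10 kb in 290 (23.1%, 20.9 to 25.5%), against 15.4% of the wider peaks. For peaks wider by 1 to 5 bp the median gap was 1702 bp (1483 to 2019 bp). Of those peaks, 23.1% (20.2 to 26.3%) had a gap under 500 bp and 20.2% (17.5 to 23.3%) one over 10 kb. Each of these intervals overlaps with that of the 200 bp peaks. The nearest neighbour of a 200 bp peak had a median width of 296 bp and was itself 200 bp wide in 126 cases (10.05%, 8.50 to 11.8%). That share was 7.80% (6.07 to 9.97%) for peaks wider by 1 to 5 bp and 7.08% (6.69 to 7.49%) for the wider peaks. The 200 bp peak was the highest of its gene in 168 of 1254 cases (13.4%, 11.6 to 15.4%), against 22.9% (22.3 to 23.6%) for wider peaks in genes with several. For peaks wider by 1 to 5 bp the share was 18.1% (15.4 to 21.0%). This share depends on how many peaks a gene holds.

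Set against the highest wider peak of the same gene, the fold enrichment of the 200 bp peak had a median ratio of 0.591 (interval 0.570 to 0.611, 1225 peaks). The same ratio, to the highest other wider peak, was 0.606 (0.571 to 0.629) for peaks wider by 1 to 5 bp, whose interval overlaps, and 0.668 (0.661 to 0.676) for all wider peaks. The 200 bp peak stood below 0.5 of that peak in 443 cases (36.2%, 33.5 to 38.9%), between 0.5 and 1 in 618, and above every wider peak of the gene in 164 (13.4%, 11.6 to 15.4%). The greatest excess was that of Pakap (NCBI gene 677884), at 7.13-fold (4.04 to 11.8) on 13 fragments at chr4:57882906-57883105, against 3.01 at its highest wider peak. Adgrd1 (NCBI gene 243277), an adhesion G protein-coupled receptor, stood at 6.398 (3.46 to 11.0) against 2.94, and Psmb10 (NCBI gene 19171), a subunit of the immunoproteasome, at 6.29 (3.56 to 10.4) against 3.11. These 3 genes were named for the size of this ratio. Nothing more is read from them, since they are the largest of 1225 ratios.

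**Figure D4:**
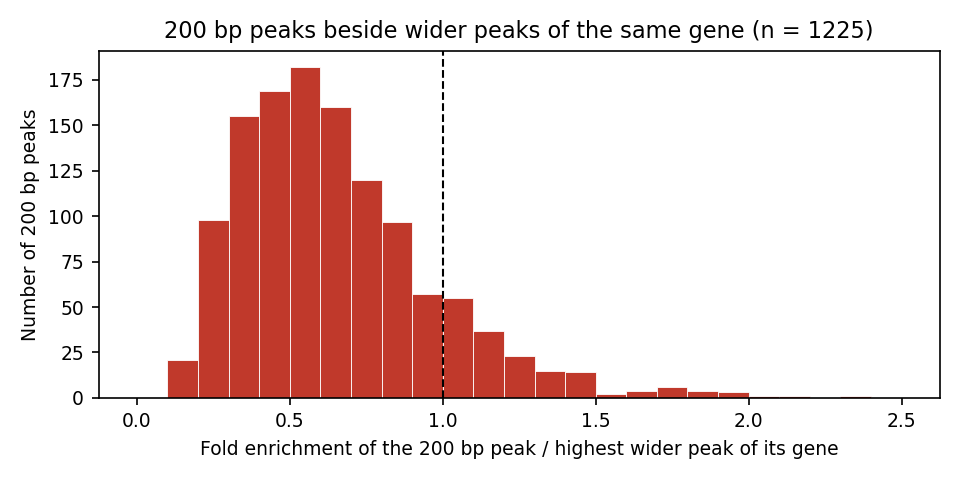
Number of 200 bp peaks (vertical axis) by the ratio of their fold enrichment to that of the highest wider peak of the same gene (horizontal axis), for 1225 peaks, with a dashed line at equal values. Most peaks lie left of the line, and 164 lie right of it.

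The strongest 200 bp peaks of single protein-coding genes lay between 8.28- and 8.82-fold. Supt3 (NCBI gene 109115), a subunit of the SAGA coactivator complex, stood at 8.82 (5.09 to 14.4) on 14 fragments at chr17:45118987-45119186, its only peak, at 99.9% of the span. Nfkbib (NCBI gene 18036), an inhibitor that holds NF-kappa-B in the cytoplasm, had the same 14 fragments and the same background of 0.700 at chr7:28759117-28759316, in a gene whose highest wider peak stood at 8.53-fold. Eno1b (NCBI gene 433182) stood at 8.65 (5.38 to 13.3) on 19 fragments, and as a near-identical copy of the glycolytic enolase gene Eno1 it may share fragments with it, so its value is uncertain. Arf5 (NCBI gene 11844), a small GTPase of Golgi traffic, stood at 8.63 (5.70 to 12.6) on 25 fragments at chr6:28424981-28425180, 170 bp from a wider peak. C1qtnf1 (NCBI gene 56745), a secreted C1q and TNF related protein, stood at 8.28 (5.02 to 12.99) on 17 fragments at chr11:118446393-118446592. The intervals of these 5 peaks overlapped.

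The weakest 200 bp peaks and the deepest ones lay in genes of high background. Sptbn1 (NCBI gene 20742), which codes for a spectrin of the membrane skeleton, stood at 1.67 (1.25 to 2.201) on 49 fragments over a background of 28.9, at chr11:30139287-30139486. Pecam1 (NCBI gene 18613), an adhesion molecule of endothelium, stood at 1.85 (1.37 to 2.45) on 47 fragments over 24.95, and Wnk1 (NCBI gene 232341), a kinase that governs salt cotransporters, at 2.16 (1.53 to 2.95) on 37 over 16.6. The most fragments, 74, were found at Rps6 and Rgs2. Rps6 (NCBI gene 20104), a protein of the small ribosomal subunit, stood at 3.28 (2.58 to 4.10) at chr4:86856296-86856495. Its wider peak stood at 2.80, inside this interval. Rgs2 (NCBI gene 19735), which damps signalling from G protein-coupled receptors, stood at 2.47 (1.95 to 3.10) at chr1:144001692-144001891 and held no other peak. Atp5b (NCBI gene 11947), the beta subunit of ATP synthase, stood at 3.06 (2.37 to 3.89) on 65 fragments. The high fold enrichments above rest on 14 to 25 fragments. A low fold enrichment passes a significance limit only over a high background, so nothing is read from these ranks.

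The genes with the most 200 bp peaks spanned 146 to 410 kb and held many wider peaks. Ttc28 (NCBI gene 209683), a gene of 410 kb for a tetratricopeptide repeat protein, held 7 among its 25 peaks, on 9 to 18 fragments. Their fold enrichments were 3.45, 5.33, 6.88, 6.55, 4.32, 5.91 and 5.24 from the 5′ to the 3′ end, against a median of 6.402 and a highest value of 20.4 among its wider peaks. Hmcn2 (NCBI gene 665700), the extracellular matrix protein hemicentin 2, held 5 among 57 peaks, at 4.41- to 5.82-fold, with wider peaks up to 16.7. Gse1 held 4 among 69 peaks, at 4.31- to 5.18-fold, with wider peaks up to 25.1. Trio (NCBI gene 223435), a guanine nucleotide exchange factor of small GTPases, held 4 among 15 peaks at 2.71- to 4.96-fold, and Nav1 (NCBI gene 215690), a protein of growing microtubules, 4 among 26 at 3.15- to 4.89-fold. In each of the 5 genes every 200 bp peak lay below the highest wider one. The highest of many wider peaks is likely to exceed any single peak, so nothing is read from this. These genes were named for their count, which depends on how many peaks a gene holds. Over the whole list 7.96% of peaks were 200 bp wide, and 5.71% (5.04 to 6.47%) in genes with 10 or more peaks. No gene was tested against these shares.

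Along the gene, 200 bp peaks lay less often near the 3′ end than wider ones. Strand was known for genes in the promoter table, which left 1223 peaks of 200 bp (79.9% of 1530) and 14291 wider ones. The median summit lay at 61.5% of the span (interval 57.8 to 64.6%), counted from the 5′ end, against 70.9% (70.0 to 71.8%) for the wider peaks. The last 10% of the span held 237 (19.4%, 17.3 to 21.7%) against 25.5% (24.8 to 26.2%), and the first 10% held 179 (14.6%, 12.8 to 16.7%) against 10.7% (10.2 to 11.2%). In both cases the intervals did not overlap. Within 1 kb of a listed start lay 171 (14.0%, 12.2 to 16.04%) against 12% (11.5 to 12.5%), where the intervals did overlap, and the direction turned under 2 alternatives, to 11.2% with peaks of up to 220 bp and to 11.1% once −log10 q had to reach 5. Lone 200 bp peaks lay within 1 kb of a start in 51 of 221 cases (23.1%, 18.01 to 29.1%), and those beside a wider peak in 111 of 973 (11.4%, 9.56 to 13.6%). Introns are part of the span, and exons were not told apart here.

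**Figure D5:**
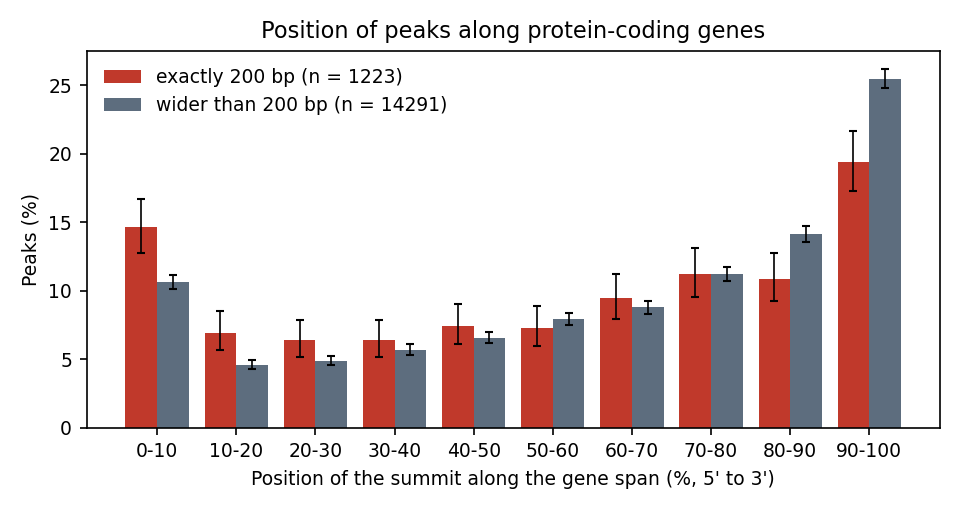
Percentage of peaks (vertical axis) by the position of the summit along the span of its protein-coding gene in percent from the 5′ to the 3′ end (horizontal axis), for 1223 peaks of 200 bp (red) and 14291 wider peaks (grey), with 95% Wilson intervals. The red bar is the taller one in the first 10% (14.6 against 10.7%) and the shorter one in the last 10% (19.4 against 25.5%).

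The whole tissue was checked against markers of its cell types, by any peak in the gene. Peaks lay in 5 of 6 epithelial markers, in 5 of 5 stromal and 6 of 6 myometrial ones, in 3 of 4 of endothelium, 3 of 5 of leukocytes and 2 of 5 of red cells. Of embryo and fat markers 0 of 4 each held a peak. Over all 21900 protein-coding genes, 6717 held a peak. A gene without a peak is not shown to lack the transcript. A 200 bp peak was found in 1 endothelial marker, Pecam1, and 1 leukocyte marker, Csf1r. In RNA of a whole organ, fewer cells of a type and less RNA per cell cannot be told apart.

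Genes of uterine receptivity held 200 bp peaks as lone, leading and minor peaks. Over all 21900 protein-coding genes, 6717 held a peak and 1289 a 200 bp peak. Of 38 genes of receptivity and implantation, 28 held a peak and 4 held a 200 bp peak, 4 of the group's 125 peaks (3.2%, interval 1.25 to 7.94%). Ltf (NCBI gene 17002), the iron-binding lactotransferrin that oestrogen induces in uterine epithelium, held it as its only peak at chr9:111029450-111029649, at 7.46-fold (4.22 to 12.4) on 13 fragments. Egfr (NCBI gene 13649), a receptor of epidermal growth factor and its relatives, held one at 5.96 (3.66 to 9.24) on 18 fragments, above its highest wider peak of 4.17. That value lies inside the interval, so the order of these peaks is uncertain. The other two, named after their values were seen, were Esr1, the oestrogen receptor alpha, at 4.73 (2.62 to 7.98) in a gene whose highest wider peak stood at 8.97, and Ihh, the hedgehog ligand of the epithelium, at 4.36 (2.36 to 7.52) and 356 bp from a wider peak, with 23.8 at the highest peak of the gene. Thus 2 of the 4 peaks were secondary to stronger ones. The median background over all peaks of this group was 4.81 fragments, against 2.63 over the whole list. Its part in the share of 200 bp peaks, here and in the groups that follow, was not tested.

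Among matrix genes, 15 of 344 peaks of basement membrane and extracellular matrix genes were 200 bp wide (4.36%, 2.66 to 7.07%), as were 8 of 212 peaks of collagen genes (3.77%, 1.92 to 7.27%). Lama5 (NCBI gene 16776), a laminin chain of basement membranes, had the strongest at 8.04 (4.999 to 12.3) on 19 fragments, 134 bp from a wider peak. Eln (NCBI gene 13717), the elastin gene, stood at 6.92 (4.06 to 11.1) on 15 fragments. Its highest wider peak stood at 6.16, inside this interval. Among collagens, Col18a1 (NCBI gene 12822), whose product carries endostatin, led with 5.50 (3.77 to 7.77) on 30 fragments, against 17.5 at its highest wider peak, and Col27a1 (NCBI gene 373864) followed with 4.87 (2.23 to 9.78) on 6 fragments. Of 30 collagen genes, 20 held a peak and 6 a 200 bp peak, against 6717 and 1289 of all 21900 protein-coding genes. The median background over all peaks was 5.25 fragments in the matrix and 9.13 in the collagen group.

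Smooth muscle genes had the lowest share of the 10 groups, 4 of 246 peaks (1.63%, 0.634 to 4.11%). Cacna1h (NCBI gene 58226), a T-type calcium channel, stood at 5.38 (2.66 to 10.01) on 8 fragments, and Myh10 (NCBI gene 77579), a nonmuscle myosin heavy chain, at 5.25 (2.40 to 10.5) on 6. In both genes a wider peak was higher. The median background over all peaks of this group was 8.19 fragments, and in the class between 8 and 16 fragments 2.23% of all peaks were 200 bp wide.

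In genes of chromatin regulators and of Wnt signalling, 2 of 16 and 1 of 10 of the 200 bp peaks stood above every wider peak of their gene, near the 13.4% of all 200 bp peaks beside a wider one. Both of these chromatin peaks lay in the same gene, on 7 and 6 fragments, so they are not independent. In chromatin genes the 200 bp peaks were 16 of 331 peaks (4.83%, 2.997 to 7.71%) in 12 of 44 genes, at a median ratio of 0.315 to the highest wider peak. Tet3 (NCBI gene 194388), which oxidises methylated cytosine in DNA, stood at 7.78 (5.05 to 11.5) on 23 fragments against 14.1. In Wnt genes they were 10 of 182 peaks (5.49%, 3.01 to 9.82%) in 10 of 50 genes, at a median ratio of 0.368. A peak of any width lay in 41 genes of each group, and in 6717 of all 21900 protein-coding genes. Of all protein-coding genes, 1289 held a 200 bp peak. The median background over all peaks was 4.55 fragments in the chromatin and 2.22 in the Wnt group. Tcf7l2 (NCBI gene 21416), a transcription factor that acts with beta-catenin, stood at 5.38 (3.04 to 8.93) against 11.3, and the ligand Wnt5b (NCBI gene 22419) at 5.27 (2.61 to 9.81) against 5.55. Solute carriers of ions held 7 of 77 (9.09%, 4.47 to 17.6%), led by Slc26a11 (NCBI gene 268512) at 5.53 and Slc24a4 (NCBI gene 238384) at 5.40, each on 7 fragments. LDL receptor-related genes held 5 of 97 (5.15%, 2.22 to 11.5%), led by the endocytic receptor Lrp1 (NCBI gene 16971) at 4.49 and the Wnt coreceptor Lrp5 (NCBI gene 16973) at 4.32.

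The 200 bp peaks in genes of ribosomal proteins and splicing factors rested on many fragments. Ribosomal protein genes held 3 of 76 peaks (3.95%, 1.35 to 11.0%), on a median of 63 fragments. Rpl41 (NCBI gene 67945) stood at 4.14 (2.76 to 6.001) on 26 fragments, and Rpl31 (NCBI gene 114641), with no other peak, at 3.72 (2.87 to 4.75) on 63. Splicing factor genes held 3 of 96 (3.13%, 1.07 to 8.79%), on a median of 51 fragments. Son (NCBI gene 20658), a large protein of nuclear speckles, stood at 5.09 (3.87 to 6.57) on 57 fragments, above its wider peaks, the highest at 3.81, and U2af2 (NCBI gene 22185), which binds the polypyrimidine tract before the 3′ splice site, at 4.51 (3.29 to 6.04) on 43. The median 200 bp peak held 11. The median background over all peaks was 20.4 fragments in the ribosomal and 9.02 in the splicing group, against 2.63 over the whole list, and in classes of such background 200 bp peaks made up 1.84% (from 16 fragments) and 2.23% (between 8 and 16). The intervals of both groups reached the 7.96% of the whole list. Of the 10 groups, 9 had a share below the 7.96% of the whole list, and the intervals of 5 reached that share. No group was tested against the rest. The genes in the groups were chosen with earlier results of these data known.

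Outside protein-coding genes lay 127 of the 200 bp peaks (7.53%, interval 6.36 to 8.89%). Pseudogenes held 46 (2.73%, 2.05 to 3.62%), against 2.09% (1.90 to 2.30%) of the wider peaks. Long non-coding RNA genes held 21 (1.24%, 0.816 to 1.90%) against 0.918% (0.793 to 1.06%). No gene at all held 56 (3.32%, 2.57 to 4.29%) against 2.56% (2.35 to 2.79%). In each of these kinds the intervals overlapped. The 200 bp peaks of these kinds had medians of 5.58-, 4.63- and 5.06-fold, each on 7 fragments. Ribosomal RNA genes held 0 of the 200 bp peaks and 48 of the wider ones. The highest fold enrichment of all 200 bp peaks was that of the pseudogene Gm3756 (NCBI gene 100042266), at 9.18 (5.19 to 15.2) on 13 fragments at chr9:31936685-31936884, and the next pseudogene was Rpl7-ps9 (NCBI gene 621983), a copy of a ribosomal protein gene, at 8.35 (4.51 to 14.4) on 11. Fragments of pseudogenes may come from their parent genes, and single copies were not told apart. Among long non-coding RNA genes, Gm5432 and Gm36600 both stood at 6.07 (2.90 to 11.7) on 7 fragments at the lowest background. A single peak, at 6.59 (4.14 to 10.001) on 20 fragments, lay in the immunoglobulin heavy chain locus, over Igh and Ighm.

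By chromosome, 200 bp peaks made up between 6.34% (5.13 to 7.81%) of the peaks on chromosome 17 and 10.8% (8.18 to 14.2%) on chromosome 18, among the autosomes, and 10.1% (7.54 to 13.3%) on the X chromosome. On chromosome Y 1 of 32 peaks was 200 bp wide, and on mitochondrial DNA 0 of 10.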

How the data were processed

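RNA of 1 ac4C immunoprecipitation and 1 input library was compared by the authors in 1 list of 21192 peaks. HISAT2 2.2.1, MACS3 3.0.0a7 and build mm10 are named per the submitters' processing notes; their settings are not given in the sources used here. The deposited list holds a fold enrichment (a ratio to background), a −log10 p, a −log10 q and an integer score for each peak, and no strand. Fragments and background at the summit were recovered from the deposited fold and −log10 p, with a pseudocount of 1 and a Poisson model, and 1 whole number fitted in each of the 21192 peaks (largest relative miss 8.58e-06). The total depth of the libraries is unknown from this list. Peaks were placed in genes by their summit, in spans of the RefSeq table for GRCm38.p6 (49997 genes, 21900 protein-coding); starts came from its promoter table, which holds 79.9% of the protein-coding genes. Shares carry 95% Wilson intervals, fold enrichments exact Poisson intervals for immunoprecipitated fragments, and medians order-statistic intervals. PCR copies were not told apart, and no interval covers the counting error of the input library. Calculations used Python 3.11.15, pandas 2.3.3 and scipy 1.17.1 and were tested on simulated data. Named by rule were the 5 highest and 3 lowest fold enrichments, the 3 peaks on most fragments, the 5 genes with most 200 bp peaks, the 3 largest ratios to a wider peak, the 3 longest genes with a lone 200 bp peak, the 2 highest of each of 10 gene lists (396 genes), and the 2 highest of each kind outside protein-coding genes. The members and lists were chosen with earlier results of these data known. Genes at the printed promoter and microRNA sequences were named after their values were seen. Other widths, q-value limits, gene assignments and subsets of peaks were tried as alternatives. A gene that the rule named is not reported here.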

Additional observations from a re-analysis of the deposited data

How the results depend on the processing

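Of 104 alternatives over 16 results, 74 stayed within the interval of the reported value, or within 1.5 times a count, and 30 moved. Adding peaks up to 5 bp wider gave 2621 peaks, a median fold enrichment of 5.02, 13 fragments, a background of 1.58 and 12.1% within 1 kb of a start. Adding peaks up to 220 bp gave 4465 peaks in 2718 genes, a fold enrichment of 5.09, 15 fragments, a background of 1.89, 15.3% as the only peak, 15.6% as the highest of several, a gap of 1735 bp, a position of 65.8% of the span, a summit offset of 101 bp and 11.2% within 1 kb of a start. A −log10 q of at least 5, which by construction removes weak peaks, left 778 peaks in 652 genes, with a fold enrichment of 5.64, 14 fragments, a background of 1.75, 92.8% in a single protein-coding gene, 6.04% outside protein-coding genes, 16.4% as the highest of several, a ratio of 0.635, a position of 65.4% and 11.1% within 1 kb of a start. Under both of these settings the share within 1 kb of a start lay below the 12% of wider peaks given in the report, a turn in direction. The wider peaks were not changed in step, and the cause was not tested. Keeping 1 peak per gene gave a fold enrichment of 5.03, leaving out the lowest background gave a background of 1.36, and leaving out summits in genes of another kind gave 86.1% in a single protein-coding gene. A −log10 q of at least 2, both overlap rules for genes and leaving out contigs, chromosome Y, mitochondrial DNA and the 5S rRNA array moved 0 results. The planned cytidine content of the peaks was not run, since no genome was used here. No paired analysis was possible because each group is 1 library and no result comes from a test. Depth limits single peaks, since 41.3% of the 200 bp peaks hold fewer than 10 fragments.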
